A study of Mus musculus with 2 samples.

Results

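DNA methylation was examined at 10 genes that report and restrain ERK signalling, out of 21938 protein-coding genes of the GENCODE M21 annotation. They were the phosphatase genes Dusp4, Dusp5, Dusp6 and Dusp9, the Sprouty genes Spry1, Spry2 and Spry4, the Sprouty-related gene Spred1, and the transcription factor genes Etv4 and Etv5. The genes were chosen by name, for their place in the pathway, and every listed CpG from 5 kb upstream of a gene's start to its end was taken. This gave 1558 cytosines of the 1782730 in the table, and each of the 10 genes held between 56 and 296. Both libraries came from the female Xmas mESC line of the C57/Bl6 strain, in which GFP and mCherry, each driven by the Hprt promoter, mark different X chromosomes. The cells were grown by the modified method in 2i/LIF, a medium that holds a MEK inhibitor and a GSK3 inhibitor, so both groups were exposed to a MEK inhibitor. The labels give 7 passages of growth, whereas the study's methods give a higher number. FACS then separated XX cells, which keep both reporters, from XO cells, which have lost an X chromosome. DNA of 1 XX population and 1 XO population was read by reduced representation bisulfite sequencing (RRBS), which covers the CpG-rich fragments left by cutting DNA at CCGG.

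Fibroblast growth factors activate RAS, RAF, MEK and ERK in turn, and ERK induces genes whose products shut the pathway down again. Among these, DUSP phosphatases remove the activating phosphates from ERK and related kinases, while Sprouty and Spred proteins act upstream, between the receptor and RAF. ETV4 and ETV5 are ETS-family transcription factors whose genes are switched on by FGF signalling, and many of the 10 genes are used as readouts of it. In mESCs this signalling promotes the exit from naive pluripotency. Female mESCs with both X chromosomes active are known for lower DNA methylation than cells with 1 X chromosome, and the X-linked gene Dusp9 has been proposed as a part of the link to MAPK signalling. The comparison asked how methylation at these genes differed between the karyotypes. Methylation was measured here and transcription was not.

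The methylation of a CpG is the share of reads, in percent, in which bisulfite left the cytosine unconverted, and every difference below is XX minus XO in percentage points. With 1 library per karyotype there was no replicate, no test and no p-value. The table gives no read counts, so the depth behind a value is unknown. Over all rows the XX library averaged 17.6% and the XO library 25.8%. The strands of a CpG were listed separately, and the only repeat measurement was the comparison of strands. At 446 CpGs of these genes with values for both strands, the strands lay a median of 2.22 points apart in the XX library and 3.03 points apart in the XO library. The gap between the strands in XX minus XO was wider, with an SD of 12.7 points over these CpGs. Both strands were lower in XX at 55 of them and both higher at 47. Over all 426739 CpGs with values for both strands, both were lower at 105429 and both higher at 31235. For a region mean, the strand spread given below is the SD, over protein-coding genes with a similar number of listed cytosines, of the gap between forward and reverse XX minus XO, divided by 2. It includes true differences between the positions read on each strand and does not cover variation between cultures. A region was counted as lower or higher in XX cells where the libraries were at least 10 points apart. Neighbouring cytosines often had identical values, and cytosines read on the same fragments are not independent readings. Of 8 promoters of pluripotency genes, 7 had a listed CpG. Their means lay between 2.15% and 23.8% in XX cells and between 6.47% and 22.4% in XO cells. Zfp42 had the widest gap (8.99% in XX against 19.6% in XO cells), and Esrrb went the other way (23.8% and 22.4%). The medians over all protein-coding promoters were 7.55% in XX and 8.92% in XO cells, so such low values do not identify the cells. The karyotypes themselves could not be checked from these values.

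The promoters of the feedback genes were lowly methylated in both karyotypes and, apart from Dusp9, differed little. Within 1 kb either side of the gene start, the 10 promoters ranged from 2.42% at Spry1 to 14.5% at Dusp9 in XX cells, and from 3.82% at Dusp5 to 25.6% at Dusp9 in XO cells. The median promoter had 8.59% in XX against 9.04% in XO cells. XX was lower at 8 of the 10 genes, against 65.7% of all protein-coding promoters, and the median of the members' differences was -0.658 points. Dusp9 was the 1 promoter at least 10 points lower in XX, and 0 were at least 10 points higher. Over 14139 protein-coding promoters with at least 3 listed CpGs, 11.9% were lower and 2.04% higher by that much, and the median difference was -1.38 points. With so few members, 1 of 10 was near that background share.

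**Figure D1:**
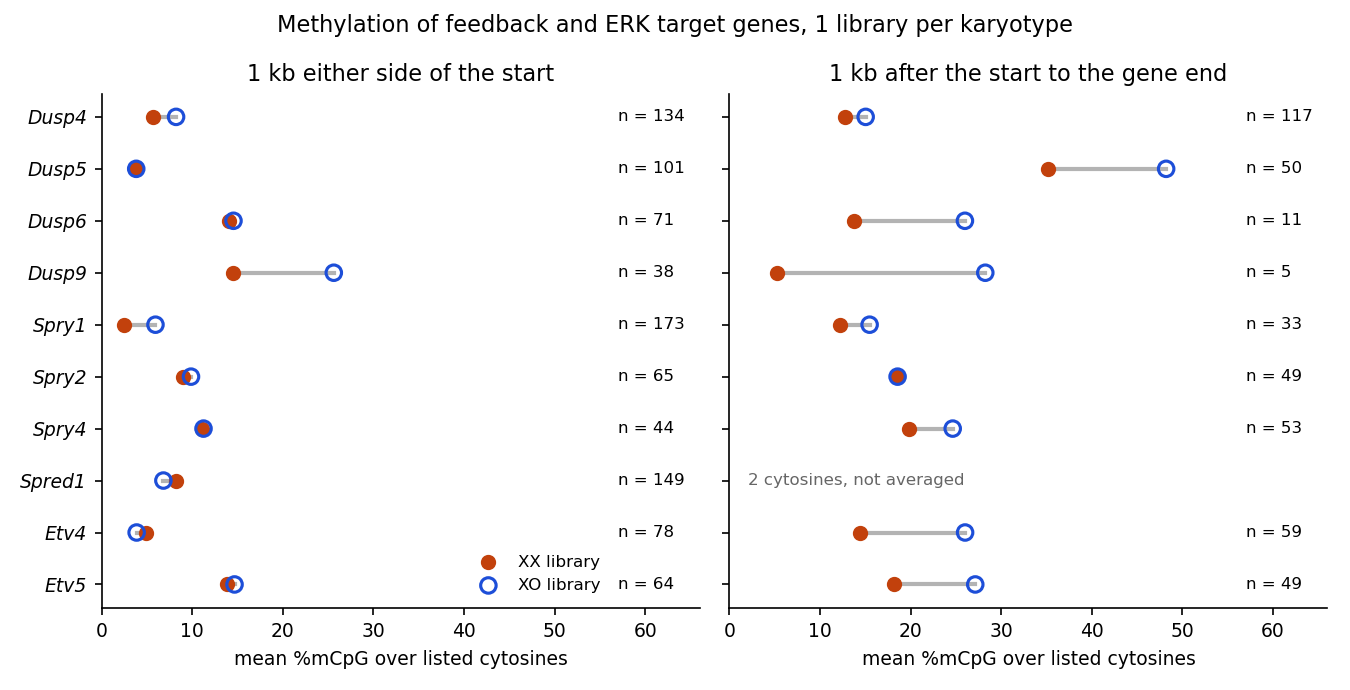
Mean methylation of each gene in the XX library (filled circles) and the XO library (open circles), on the left within 1 kb of the gene start and on the right from 1 kb after the start to the gene end, with the number of listed cytosines beside each. The horizontal axis is the mean %mCpG, there is 1 library per karyotype and so no error bar, and Dusp9 is the promoter with the widest gap (14.5% against 25.6%).

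The levels of different promoters have no replicate error, so whether neighbours in their order differ could not be told. In XX cells Spry1 (2.42%), Dusp5 (3.804%), Etv4 (4.95%) and Dusp4 (5.73%) were lowest. Spred1 (8.21%), Spry2 (8.98%) and Spry4 (11.1%) lay between them and Etv5 (13.9%), Dusp6 (14.0%) and Dusp9 (14.5%). The last 3 lay within 1 point of each other. The order in XO cells was Dusp5 (3.82%), Etv4 (3.87%), Spry1 (5.95%), Spred1 (6.82%), Dusp4 (8.22%), Spry2 (9.87%), Spry4 (11.2%), Dusp6 (14.6%), Etv5 (14.7%) and Dusp9 (25.6%). Each library was read at the same cytosines, which were 19.1% (Spry4) to 48.3% (Spry1) of the CpG cytosines in the promoter. RRBS reads mainly near CCGG, of which the 10 promoters held from 6 at Dusp9 to 23 at Spry2. Of all protein-coding promoters, 86.3% held at least 1 CCGG and the median was 6.

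Dusp9, which encodes a cytoplasmic ERK phosphatase and is the only X-linked member, showed opposite differences at its start and in its coding sequence. Its promoter window (chrX:73638419-73640419 of GRCm38, gene on the forward strand) held 2 runs of CpGs, the second of which ended just beyond the window, and 1 further CpG between them. The runs were chosen for description after their values were seen. The sequence of the second run, 895 to 1034 bp after the start in a coding exon, is printed because it held the largest gap of the gene, with the 15 listed CpGs in capitals.
Dusp9 coding exon, chrX:73640314-73640453, forward strand: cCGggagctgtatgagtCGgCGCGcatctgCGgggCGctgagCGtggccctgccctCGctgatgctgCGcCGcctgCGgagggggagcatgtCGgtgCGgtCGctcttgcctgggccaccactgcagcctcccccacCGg
At its 17 listed cytosines, XX values ran from 0 to 7.41% with a mean of 2.88%, and XO values ran from 11.8% to 53.8% with a mean of 43.0%. All 17 were lower in XX cells and the ranges of the 2 libraries did not overlap. The difference was -48.5 points over 10 cytosines of the forward strand and -28.3 points over 7 of the reverse strand. The 17 cytosines took only 7 distinct pairs of XX and XO values, so they are not 17 independent readings. Among runs of all protein-coding genes with at least 10 CpGs, 22.4% were at least 10 points lower in XX. How many of those had ranges that did not overlap was not counted.

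Around the Dusp9 start the XX library was the higher one. The 21 listed cytosines from 45 to 350 bp after the start, in the 5′ UTR and the first intron, averaged 23.4% in XX against 13.1% in XO cells. Of these, 17 were higher and 4 lower in XX, and both strands went the same way, by 11.4 points (forward strand) and 9.58 points (reverse strand).
The 8 cytosines of the forward strand nearest to the start averaged 25% in XX against 10% in XO cells, higher in XX at each. The next 6, on the reverse strand, averaged 21.4% and 27.3%, with 3 higher and 3 lower in XX cells.

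The Dusp9 promoter value was therefore a mixture. Its 38 cytosines averaged 14.5% in XX against 25.6% in XO cells, a difference of -11.1 points against a strand spread of 4.76 points. By strand the difference was -20.1 points (forward strand) and -2.10 points (reverse strand). Without the coding exon the remaining 22 cytosines averaged 23.1% in XX against 12.9% in XO cells, and the sign turned to 10.3 points higher in XX. Farther along, 3 cytosines of another coding exon, 1951 to 1993 bp after the start, had a mean of 0 in XX against 16.7% in XO cells. Upstream, 6 cytosines 2396 to 2270 bp before the start averaged 1.00% and 10.6%, and 7 cytosines 2161 to 2087 bp before it averaged 20.8% in XX against 15.5% in XO cells. The upstream runs thus also lay on opposite sides.

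Other X-linked promoters had values like those of Dusp9. Among 287 X-linked promoters with at least 10 CpGs, 34, Dusp9 included, differed by at least as much in the same direction. The 3 nearest in XX and XO level were Emd (14.3% and 24.8%, 32 cytosines), which encodes the nuclear envelope protein emerin, Apln (15.5% and 27.5%, 24 cytosines), which encodes the peptide ligand apelin, and Arhgap4 (13.6% and 23.1%, 18 cytosines). They lay 0.872, 2.13 and 2.70 points from Dusp9 in the plane of the 2 values. In each of these the forward strand was also the lower one, with differences of -17.97, -24.3 and -20.02 points against -2.99, 0.281 and 11.5 points on the reverse strand. Over 410 X-linked promoters the median difference was -1.50 points.

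Dusp6, the gene of the ERK-specific cytoplasmic phosphatase, had a partly methylated start in both libraries, unlike a run of CpGs farther upstream. Its 71 promoter cytosines averaged 14.0% in XX against 14.6% in XO cells, a gap of -0.525 points with a strand spread of 3.62 points. That mean hid runs of opposite sign. The 228 bp just upstream of the start are printed with their 14 listed CpGs in capitals, because several of those runs lie there.
Dusp6 upstream of the start, chr10:99263003-99263230, forward strand: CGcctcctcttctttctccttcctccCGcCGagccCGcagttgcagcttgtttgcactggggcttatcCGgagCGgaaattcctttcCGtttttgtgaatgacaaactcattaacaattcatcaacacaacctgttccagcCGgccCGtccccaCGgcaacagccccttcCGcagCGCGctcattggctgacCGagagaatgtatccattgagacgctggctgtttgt
From 227 to 159 bp before the start, 5 cytosines of the reverse strand averaged 63.1% in XX against 41.8% in XO cells, higher in XX at each. From 87 to 36 bp before it, 7 cytosines of the forward strand averaged 36.8% in XX against 58.6% in XO cells, lower in XX at each. From 20 to 83 bp after it, 4 cytosines of the reverse strand averaged 23.2% and 56.2%, again lower in XX at each. Between the first and second of these stretches, 3 cytosines of the forward strand had 0 in XX against 1.11% in XO cells, and the reverse-strand cytosines 154 and 140 bp before the start both had 0 in XX against 9.09% in XO cells. The strands disagreed at shared CpGs too, as at the CpG 160 bp before the start, which had 0 in XX against 3.33% in XO cells on the forward strand but 69.2% against 45.5% on the reverse strand. At the CpG 87 bp before it the forward strand had 26.3% against 31.6%, and the reverse strand had 0 in both libraries. These stretches were divided after their values were seen.
The run 1771 to 1420 bp upstream was close to unmethylated in both libraries, with 1.70% in XX against 1.98% in XO cells over 72 cytosines. All listed cytosines of this run and of the run across the start lay in CpG islands. Within the gene, the widest gap was in a coding exon 1469 to 1533 bp after the start, where 4 cytosines of the reverse strand averaged 20.2% in XX against 60.9% in XO cells. A run of 4 in the 3′ UTR had 1.21% and 0.568%.

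**Figure D2:**
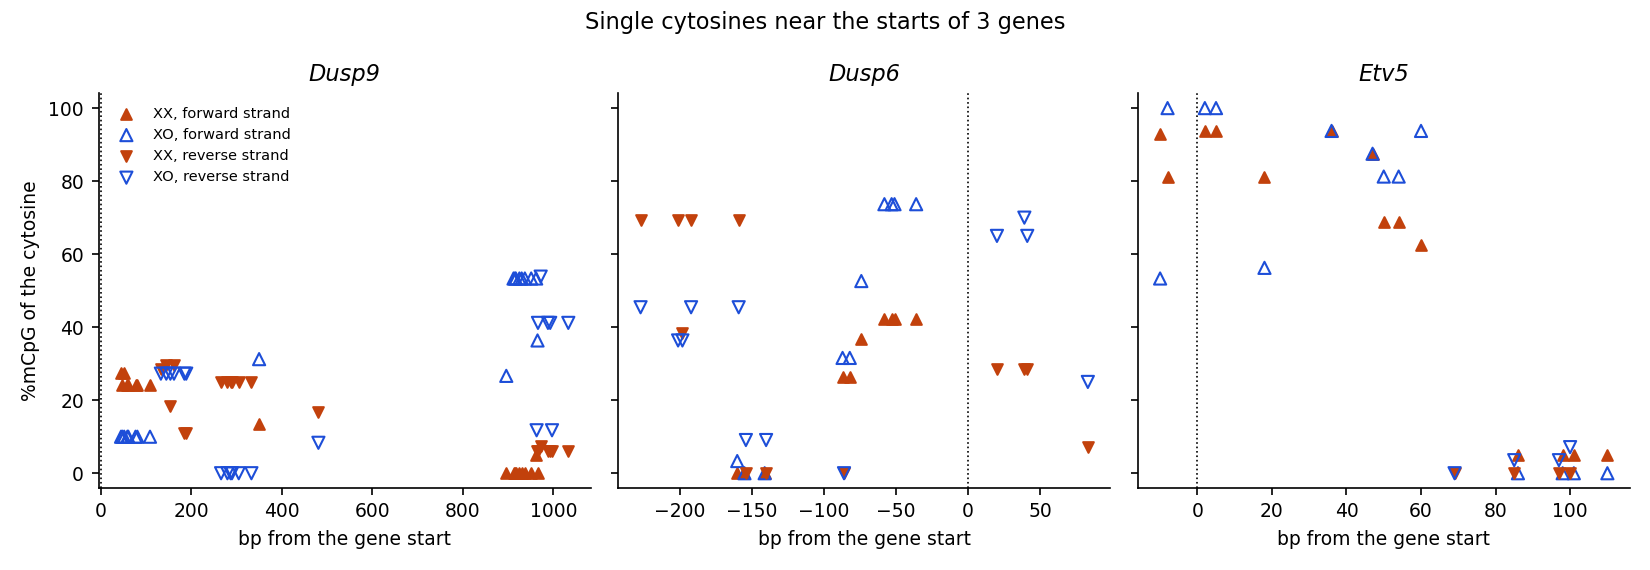
Methylation of single listed cytosines near the starts of Dusp9, Dusp6 and Etv5, against the distance from the gene start in bp (dotted line), with filled symbols for XX, open symbols for XO, and triangles pointing up for the forward and down for the reverse strand. At Dusp9 the XX symbols lie mostly above the XO symbols near the start and below all of them in the coding exon near 1 kb, and at Etv5 both libraries are high over the start and near 0 beyond 60 bp.

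Dusp4 and Dusp5, which encode inducible nuclear phosphatases of the same family, had low mean levels around their starts in both libraries. At Dusp4 (chr8:34806297-34808297) the promoter had 5.73% in XX against 8.22% in XO cells over 134 cytosines, a difference of -2.49 points within the strand spread of 2.90 points. None of its 13 runs of CpGs differed by 10 points. The widest gap was across the end of a coding exon and the next intron, 798 to 1124 bp after the start, where 40 cytosines averaged 15.9% in XX against 25.6% in XO cells. There the forward strand differed by -16.2 points and the reverse strand by -0.965 points. The run across the Dusp4 start averaged 8.16% in XX against 8.03% in XO cells over 93 cytosines. Its single values reached 50% in XX and 35.7% in XO cells.
The Dusp5 promoter (chr19:53528109-53530109) differed by less than the strand spread of 3.18 points, with 3.804% in XX against 3.82% in XO cells over 101 cytosines. Of the runs of all protein-coding genes, 49.8% were at least 10 points lower in XX. Of the 12 runs of Dusp5, 5 were, all from 6812 to 12217 bp after the start. The widest of these gaps spanned the end of the coding sequence and the start of the 3′ UTR, with 50.6% in XX against 83.8% in XO cells at 5 cytosines, lower in XX at each. A coding run 8355 to 8460 bp after the start had 26.6% and 44.0% over 9 cytosines, and an intron run 9110 to 9352 bp after it had 36.2% and 48.8% over 15. In the other direction, 3 cytosines in the first intron had 10.3% in XX against 0 in XO cells. An antisense gene, AC137853.2, covers the Dusp5 start and held 82 of its cytosines, so those values belong to both genes.

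The Sprouty genes encode inhibitors of receptor tyrosine kinase signalling, and their promoters differed by less than 4 points between the libraries. Spry1 (chr3:37638947-37640947) had 2.42% in XX against 5.95% in XO cells over 173 cytosines. This difference of -3.52 points was larger than the strand spread of 2.70 points and similar on the forward (-3.81) and reverse (-3.16) strands. Gm42922, a gene model of uncertain status on the opposite strand, overlaps 128 cytosines of the Spry1 region. The intron run with the largest Spry1 gap is printed with its 5 listed CpGs in capitals.
Spry1 intron, chr3:37641911-37642057, forward strand: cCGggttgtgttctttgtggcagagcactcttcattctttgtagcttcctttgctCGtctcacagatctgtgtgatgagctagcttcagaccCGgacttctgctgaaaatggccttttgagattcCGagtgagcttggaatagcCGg
Its 8 cytosines averaged 16.6% in XX against 40.6% in XO cells, and 7 of 8 were lower in XX. Both strands shared the direction, with -19.4 points (forward strand) and -28.6 points (reverse strand). In contrast, 8 cytosines of the reverse strand from 994 to 1060 bp after the start had 25% in XX against 15.3% in XO cells. In the 3′ UTR, 3 cytosines had 11.6% and 23.5%.

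Spry2 was the Sprouty gene with the most runs at least 10 points higher in XX cells, 3 of 12, with 1 lower. Spry4 had 2 of 9 higher and Spry1 had 0 of 5. Over all protein-coding genes, 4.39% of runs were higher and 49.8% lower by that much. The Spry2 promoter (chr14:105895819-105897819, reverse strand) had 8.98% in XX against 9.87% in XO cells over 65 cytosines. The strands went opposite ways, with 4.31 points (forward strand) and -6.25 points (reverse strand), so the mean of -0.889 points was smaller than the disagreement between strands. The largest gap of a run lower in XX cells lay just upstream of the start and is printed with its 6 listed CpGs in capitals.
Spry2 upstream of the start, chr14:105896920-105896984, reverse strand: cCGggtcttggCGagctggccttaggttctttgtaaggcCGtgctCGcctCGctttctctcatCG
These 6 cytosines averaged 22.5% in XX against 39.5% in XO cells, and all 6 were lower in XX. The 4 cytosines next to the start, on the other strand, averaged 44.6% and 38.9%. Farther upstream, 17 cytosines from 2131 to 2021 bp before the start averaged 13.0% in XX against 0 in XO cells. That gap came from the 10 of the forward strand, at 22.1 points, while the 7 of the reverse strand did not differ.
Runs of 3 cytosines were higher in XX at 2310 to 2244 bp before the start (41.0% against 16.7%) and in the intron 2723 to 2789 bp after it (65.2% against 54.5%). A run of 5 from 1789 to 1730 bp before the start was methylated in both libraries, at 58.5% in XX against 60% in XO cells.

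Spry4 had wide gaps in both directions. Its promoter (chr18:38600415-38602415, reverse strand) had nearly equal means, 11.1% in XX against 11.2% in XO cells over 44 cytosines, but the strands differed by 9.30 and -11.6 points. Just after the start, 14 cytosines from 141 to 260 bp had 0 in XX against a mean of 23.0% in XO cells, with 12 lower and 2 equal. Just before the start, 3 cytosines of the forward strand had 55.6% in XX against 24.1% in XO cells. The widest gap of all 85 runs in the direction of higher XX was in the intron 4006 to 4070 bp after the start, where 5 cytosines of the reverse strand averaged 73.3% in XX against 33.3% in XO cells, higher at each. In coding sequence from 10717 to 11549 bp after the start XX was lower, with 9.64% and 18.8% over 24 cytosines and 11.6% and 21.3% over 12. A lincRNA gene, AC133601.1, starts close by and shared 17 of the Spry4 cytosines.

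Spred1, whose product recruits neurofibromin to inactivate RAS, had a low promoter mean in both libraries. Its promoter (chr2:117120374-117122374) had 8.21% in XX against 6.82% in XO cells over 149 cytosines, 1.39 points higher in XX with a strand spread of 2.82 points. The strands again disagreed, with -4.43 points (forward strand) and 5.20 points (reverse strand). The run across the start held 105 cytosines at 10.97% in XX against 9.23% in XO cells, and that 436 to 331 bp upstream held 34 at 1.91% and 1.39%. Its only run with a gap of 10 points was 1629 to 1569 bp upstream, where 4 cytosines had 4.76% in XX against 16.96% in XO cells. Only 2 cytosines were listed beyond 1 kb in the body of this long gene, so no body mean was taken.

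The ETS factor genes Etv4 and Etv5 had similar promoter levels in both karyotypes and lower XX levels within the gene. At Etv4 (chr11:101784371-101786371, reverse strand) the promoter had 4.95% in XX against 3.87% in XO cells over 78 cytosines, 1.08 points apart with a strand spread of 3.49 points. Of the runs of all protein-coding genes, 49.8% were at least 10 points lower in XX. Of the 9 runs of Etv4, 4 were, toward the end of the gene, in coding exons or reaching into the next intron. They had 20.8% in XX against 51.6% in XO cells (6 cytosines), 17.5% and 61.5% (3), 20.02% and 42.4% (7), and 2.67% and 13.7% (4). Between them, 1 intron run had 0.532% in XX against 0 in XO cells over 4 cytosines. Another went the other way, with 10.6% in XX against 1.67% in XO cells over 6 cytosines of the reverse strand. The gap was therefore not uniform along the gene.

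Etv5 held the most methylated run across a gene start, with 46.9% in XX against 47.9% in XO cells over 18 cytosines. Its promoter (chr16:22438719-22440719, reverse strand) had 13.9% in XX against 14.7% in XO cells over 64 cytosines, with a difference of -0.791 points against a strand spread of 3.84 points. From 10 bp before to 60 bp after the start, 10 cytosines of the forward strand averaged 82.4% in XX, from 62.5% to 93.8%, and 84.7% in XO cells, from 53.3% to 100%. The ranges of both libraries overlapped. Directly beyond, 4 cytosines of the same strand from 86 to 110 bp had 5% in XX against 0 in XO cells, and 4 of the other strand had 0 and 3.57%. The next run, 262 to 413 bp after the start, had 0.546% and 0.802% over 36 cytosines. The high stretch, delimited after its values were seen, was present in both karyotypes and ended before 86 bp after the start. How far it reached upstream is unknown, because no cytosine was listed between 755 and 10 bp before the start.
Farther in, the Etv5 intron run with the largest gap is printed with its 7 listed CpGs in capitals.
Etv5 intron, chr16:22392499-22392648, reverse strand: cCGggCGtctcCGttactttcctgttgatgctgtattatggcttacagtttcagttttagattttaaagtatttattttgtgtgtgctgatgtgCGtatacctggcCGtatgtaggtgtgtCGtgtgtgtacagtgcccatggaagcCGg
Its 7 cytosines averaged 26.03% in XX against 50.9% in XO cells and all 7 were lower in XX, with -14.1 points (forward strand) and -39.4 points (reverse strand). Another intron run, 1163 to 1271 bp after the start, had 8.06% and 20.7% over 16 cytosines. Upstream the direction turned, since 7 cytosines 1108 to 1003 bp before the start had 44.3% in XX against 24.6% in XO cells and were higher in XX at each. An intron run 18356 to 18477 bp after the start kept 41.8% in XX against 40.5% in XO cells over 8 cytosines.

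Gene bodies, taken from 1 kb after the start to the gene end, were lower in XX cells at all 9 members with at least 3 listed CpGs. So were 93.6% of the bodies of all protein-coding genes. The medians over these members were 14.4% in XX against 25.99% in XO cells, and the median difference was -9.00 points. Dusp5 (35.2% and 48.2%, 50 cytosines), Dusp6 (13.7% and 25.99%, 11), Dusp9 (5.21% and 28.2%, 5) and Etv4 (14.4% and 26.01%, 59) were lower by at least 10 points, and 0 were higher by that much. Over 14288 gene bodies of protein-coding genes, 65.0% were lower and 0.791% higher by 10 points, with medians of 26.9% in XX against 43.4% in XO cells and a median difference of -14.0 points. Being lower in XX by 10 points was thus no more frequent among these 9 genes than among all genes, and the members started from lower XO levels.
Etv5 was just short of that limit, with 18.1% in XX against 27.1% in XO cells over 49 cytosines. At Spry4 the means were 19.8% and 24.6% over 53 cytosines, at Spry1 12.2% and 15.5% over 33, and at Dusp4 12.8% and 15.0% over 117. Spry2, with 18.5% in XX against 18.6% in XO cells over 49 cytosines, differed by -0.0663 points. The strands shared the direction at Dusp5 (-9.98 and -16.0 points), Etv4 (-11.6 on both), Etv5 (-6.25 and -12.7) and Dusp9 (-30 and -21.3). They did not at Dusp6, where 3 cytosines of the forward strand differed by 2.24 points and 8 of the reverse strand by -17.7 points, at Spry4 (-14.5 and 4.6 points), at Dusp4 (-4.28 and 0.107) or at Spry2 (1.96 and -2.56). At Spry1 they shared it (-6.17 and -0.599).

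When listed cytosines at most 100 bp apart were joined, the 10 genes held 85 runs with at least 3 cytosines. The median run had 10.1% in XX against 13.8% in XO cells, 49 were lower and 36 higher in XX, and the median difference was -2.19 points. By at least 10 points, 20 were lower and 8 were higher. Over 86781 runs of all protein-coding genes taken the same way, 49.8% were lower and 4.39% were higher by that much, with medians of 20.6% in XX against 36.0% in XO cells. By any amount, 78.7% of these runs of all genes were lower in XX. A run with under 10% in XO cells cannot be 10 points lower in XX, so the runs with at least 20% in XO were also counted alone. Runs chosen for a high XO value are also more likely to count as lower in XX, in these genes and in all genes. The counts by XO level below share this limit. Of 32 such runs in these genes, 17 were lower and 4 were higher in XX by 10 points, against 72.9% and 4.12% of 57212 runs of all protein-coding genes. Their median XO level was 39.4% against 50.3%, so the levels were not matched. With 20 to 40% in XO, 6 of 17 runs were lower by 10 points, against 9814 of 17678. With 40 to 60% it was 8 of 11 against 16664 of 21189, and from 60% it was 3 of 4 against 15216 of 18345. The runs of 1 gene are not independent of each other, and no test was made of these counts.

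**Figure D3:**
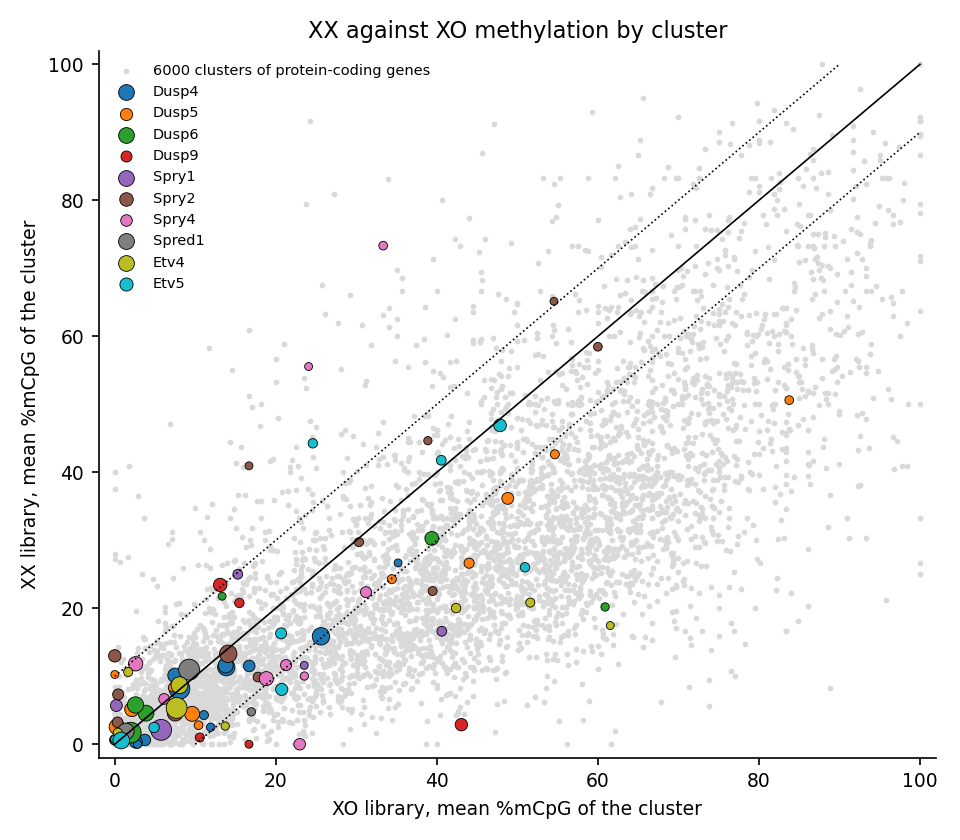
Mean methylation of each run of listed CpGs in the XX library (vertical axis, percent) against the XO library (horizontal axis, percent), in colour for the 10 genes with larger circles for more cytosines and in grey for a random draw of runs of all protein-coding genes. The solid line marks equal values and the dotted lines a gap of 10 points, and 20 of the 85 coloured circles lie below the lower and 8 above the upper dotted line.

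The 8 runs higher in XX by 10 points belonged to Spry2 (3 runs), Spry4 (2), Dusp5, Dusp9 and Etv5 (1 each). Of the 42 runs with at least 10 cytosines, 2, at the Dusp9 start and upstream of Spry2, were higher by 10 points and 4 were lower, against 2.24% and 22.4% of 27173 such runs of all protein-coding genes. Over single cytosines the means were 9.37% in XX against 17.6% in XO cells in coding exons (229 cytosines), 14.9% and 18.01% in introns (441), 7.03% and 9.70% in UTRs (355), 4.87% and 2.40% in noncoding exons (21), and 9.99% and 9.48% upstream (512). Of the 1558 cytosines 1134 lay in CpG islands, where the means were 7.84% in XX against 8.69% in XO cells, and the 424 cytosines outside had 17.7% and 24.7%.

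Downstream of the start the libraries lay farther apart with distance. From 5 to 1 kb upstream the cytosines of these genes averaged 10.1% in XX against 10.002% in XO cells, and in the last 1 kb before the start 9.89% and 9.11%. In the first 1 kb after the start they had 6.03% and 8.40%, and from 1 to 5 kb after it 15.5% and 18.8%. Beyond 5 kb they had 21.2% in XX against 32.2% in XO cells, lower in XX in all 6 genes read there. Of all protein-coding genes read there, 12232 of 12923 were lower in XX. All protein-coding genes had 16.9% and 23.9%, 8.66% and 10.2%, 7.17% and 8.46%, 13.9% and 19.1%, and 24.3% and 37.0% in the same bands. The gap from 5 to 1 kb upstream was thus 0.133 points in these genes and -6.94 points in all genes, and the members differed there, from -14.0 points over 6 cytosines at Spred1 to 19.7 points over 7 at Etv5. Dusp6 gave 91 of the 213 cytosines of that band.

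**Figure D4:**
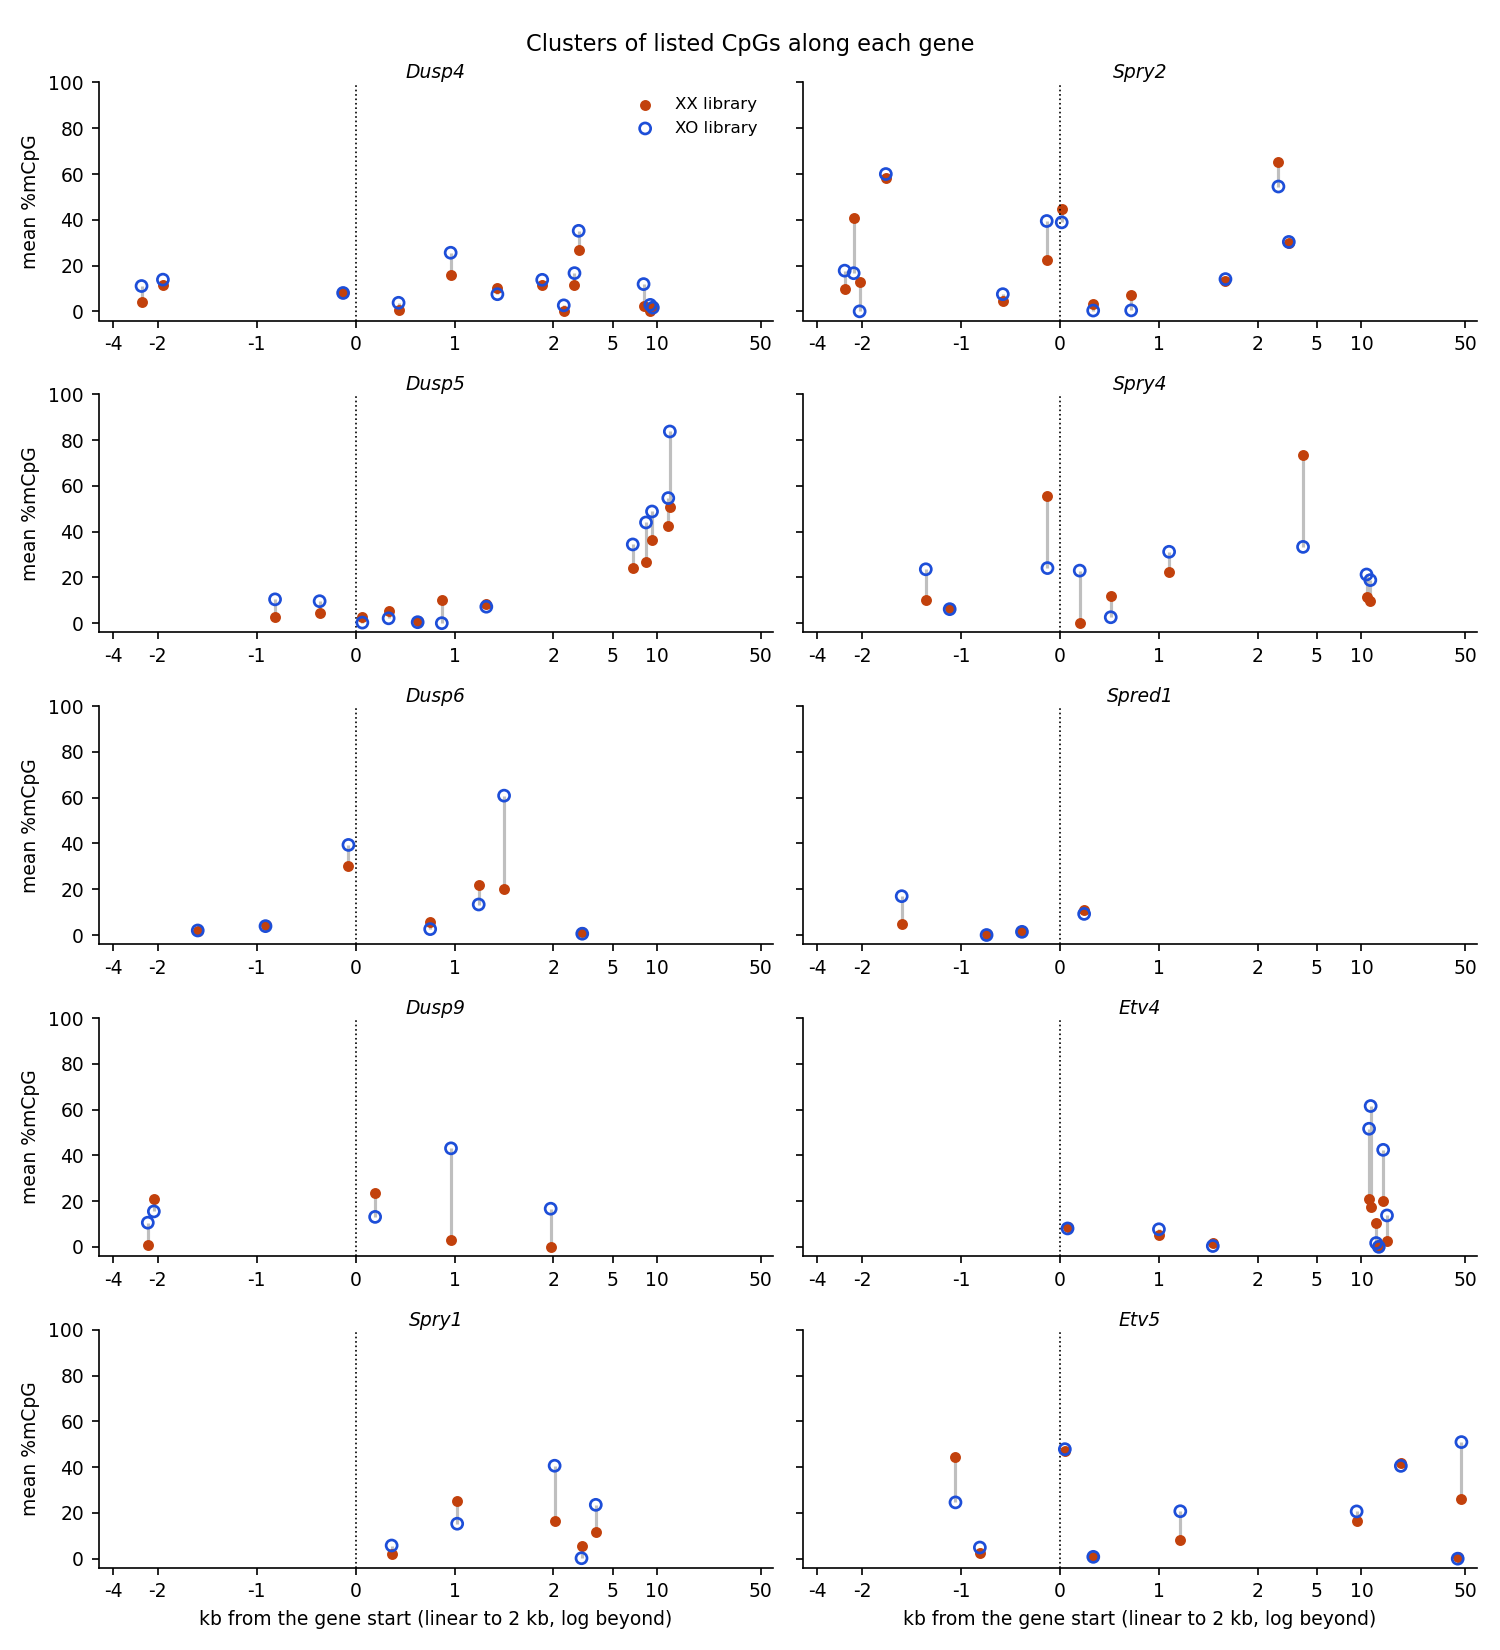
Mean methylation of every run of at least 3 listed cytosines along each of the 10 genes, in percent, against the distance of the run from the gene start in kb (linear to 2 kb and logarithmic beyond), with filled circles for XX, open circles for XO and a grey line joining the 2 values of a run. Runs near the starts are mostly low with both circles close together, and the open circles lie above the filled ones in most runs beyond 5 kb, for example at Dusp5 and Etv4.

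The other genes of the FGF and ERK pathway were taken from a list of 65 genes, of which 64 were found in the annotation. Of 61 with a promoter value, the median was 5.54% in XX against 6.87% in XO cells. XX was lower at 34 of them, against 65.7% of all promoters. By at least 10 points 2 were lower and 2 higher, against 11.9% and 2.04% of all promoters. The lower ones were Fgf8, a ligand gene (10.7% and 21.8%, 59 cytosines), and Egr1, an immediate early gene (5.64% and 16.6%, 20). Dusp8, a phosphatase gene, followed with 3.05% and 12.1%. Of the promoters with at least 10 cytosines, Braf, the kinase that activates MEK, had the largest value in the other direction (16.0% in XX against 7.64% in XO cells), followed by Dusp7, an ERK phosphatase gene (13.0% and 6.08%), and Ksr1, a scaffold gene (16.0% and 10.3%). At Braf this came from the forward strand, with 20.9 points against -2.57 points on the reverse strand. The 2 promoters higher by 10 points had fewer cytosines and are named after their values were seen. They were the receptor gene Fgfr1 (37.3% and 21.5%, 9 cytosines) and the X-linked gene Klhl13, a ubiquitin ligase adaptor (54.9% and 20%, 7 cytosines of 1 strand).
Among 61 bodies of these pathway genes, 56 were lower in XX, as were 93.6% of all gene bodies. By at least 10 points 33 were lower, against 65.0% of all gene bodies, and 1, Pebp1, was higher over 4 cytosines. The median was 23.6% in XX against 34.2% in XO cells. By role, 7 of 9 bodies of adaptor or exchange factor genes, 4 of 5 of RAS and RAF genes, 7 of 9 of MEK, ERK and scaffold genes, 3 of 7 of ligand or receptor genes, 8 of 15 of other negative regulators and 4 of 16 of other ERK-responsive genes were lower by 10 points, to be read against the same 65.0%. The bodies of the ERK-responsive genes also had the lowest median level in XO cells of these groups, 19.1%, whereas the MEK, ERK and scaffold genes had 39.9%.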

How the data were processed

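RRBS libraries were made from DNA of FACS-sorted XX and XO Xmas mESCs, 1 per karyotype, with a NuGEN Ovation Methylseq kit per the labels. The submitters' processing notes name bcl2fastq, Bismark and mm10, with no version. The values deposited by the authors are the percent methylation of single CpG cytosines, in 1 column per library. Read counts were not used here, the depth is unknown, and a coverage minimum is not given in the sources used here. A library prepared from sites cut at CCGG reads CpG-rich sequence preferentially, and neighbouring CpGs share reads.

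Positions were compared with GRCm38, where 51 of 1782730 rows, and 0 of the 1558 rows of these genes, lay on no CpG. Genes were taken from GENCODE M21. Means were taken over listed cytosines within 1 kb of the start, from 1 kb after it to the gene end, and over runs of at least 3 cytosines joined at gaps of at most 100 bp. CpG islands were called by a running score of 17 for a CpG and -1 for another base, over 200 bp, with at least 50% GC and an observed to expected ratio above 0.6. The 10 genes, the pathway list and the rules for named genes (for each member the run of at least 5 cytosines with the largest gap, for the pathway list the 3 lowest and 3 highest promoter differences with at least 10 cytosines, and the 3 X-linked promoters nearest to Dusp9) were chosen with earlier results of these data known. No test was made, as there are no replicates. The alternatives tried were other windows, strands, minimums, gaps and thresholds. The region means, the runs of CpGs and the island calls were first tested on simulated data. The work used Python 3.11.15 with pandas 2.3.3, numpy 2.4.6, matplotlib 3.10.9 and numba 0.67.0. The sequence at the Dusp9 start is not reported here.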

Additional observations from a re-analysis of the deposited data

How the results depend on the processing

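No paired analysis was possible because there was 1 library per karyotype and no test was made. An alternative was taken to move a single gene's difference when it went beyond the strand spread, and a count when it changed by more than 1.5 times. Of 93 recalculated differences of single promoters, 81 stayed within the spread, as did 60 of 70 of single gene bodies, and 24 had the other sign than the reported difference, 9 of them beyond the spread. Of these 9, 3 turned a difference of at least 10 points. They were the Dusp9 promoter taken 500 bp either side of the start (10.3 points higher in XX), because that window leaves out the coding exon, and the Dusp6 gene body on the forward strand only (2.24) or as a median over CpGs (1.43). The others were the promoters of Spry2 (4.31), Spry4 (9.30) and Spred1 (-4.43) on the forward strand, the Spry4 gene body on the reverse strand (4.6), and, as medians over CpGs, the Dusp4 promoter (1.42) and the Spry1 gene body (5.64).

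The median difference of the promoters was -0.658 points, and -2.42 points with CpGs outside islands only, where 3 promoters had a value and Dusp9 had none. The 1 promoter lower by 10 points, Dusp9, became 0 with strands counted once, with autosomal members only, at 20 points, with 500 bp either side and outside islands, and with 500 bp either side 1 promoter was higher. For gene bodies, the median of -9.00 points became -6.21 on the forward strand, -11.6 on the reverse strand, -6.90 with autosomal members or with at least 10 CpGs, and -4.07 when taken from the start. The 4 bodies lower by 10 points became 2 on the forward strand, 1 at 20 points and 1 from the start. For runs of CpGs, the median of -2.19 points became -2.95 without CpGs at exactly 0 or 100 in both libraries, -0.566 on the reverse strand and -0.872 with at least 10 CpGs. The 20 lower and 8 higher runs became 4 and 2 with at least 10 CpGs, 33 and 16 at 5 points, 9 and 3 at 20 points, and 31 and 14 with a gap of 50 bp, and 5 were higher with a gap of 200 bp. The lower runs were 23.5% of all, and 9.52%, 38.8% and 10.6% with at least 10 CpGs, at 5 points and at 20 points. Other than those the construction shows, the causes were not tested. Depth was unknown, so the precision of any single value could not be given.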
